A study of Arabidopsis thaliana with 2 samples.

Results

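The genes described here are 5 SWEET sugar transporter genes of Arabidopsis thaliana, SWEET3, SWEET11, SWEET13, SWEET16 and SWEET17, compared between the gain-of-function line BOUNTIFUL and the wild-type accession Ws-0. They were chosen by symbol, as probe sets that the array annotation assigns to exactly 1 gene, with the values of the present comparison already known. All 5 had such a probe set, among 13356 genes with one on the array. A further 11 SWEET genes with a probe set of their own are given as context, so that 16 of the 17 genes of the family were read, and SWEET12 was not analysed here.

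SWEET proteins are membrane uniporters that let sugars pass down their concentration gradient, in either direction and without coupling to protons. In Arabidopsis the family falls into clades I to IV. Proteins of clades I and II mainly carry glucose and other hexoses, those of clade III mainly carry sucrose, and those of clade IV sit in the tonoplast, the membrane around the vacuole, and carry fructose among other sugars. In mature leaves, clade III exporters of the phloem parenchyma release sucrose into the cell wall space, from which proton-coupled carriers load it into the phloem. Tonoplast SWEETs move sugars between the vacuolar store and the cytosol.

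BOUNTIFUL carries an Activation Tag I/dSpm insert in the locus named BOU, in the Ws-0 background, and the labels name no insert for Ws-0 (stock N1603). The 4 youngest rosette leaves of each genotype were taken as a mixture at developmental stage 6.50, and the glasshouse compost culture ran at 23 °C under 16 h days. Each genotype was measured on 1 Affymetrix ATH1 array, so there is no replicate and no test, and variation between plants is unknown. The number of plants behind each RNA sample and the promoter or enhancer that acts on BOU are not given in the labels.

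The values are MAS5 signals, the brightness of a probe set in arbitrary units on a linear scale. The median signal was 38.9 units in BOUNTIFUL and 39.0 units in Ws-0. Controls for Bacillus subtilis genes, 27 probe sets in all, had a highest signal of 21.9 units in BOUNTIFUL and 16.7 units in Ws-0, and signals of that size were taken as background. Log2 ratios are BOUNTIFUL over Ws-0 after 7.77 units, the 20th percentile of all signals, were added to each signal, which understates differences of low signals. A probe set passed the filter where its mean over both arrays reached 39.9 units, the median of that mean. A probe set has its own brightness per transcript, so levels are compared between genotypes for 1 probe set at a time and not between genes. Hybridisation spikes are transcripts added to the hybridisation mix. Their 9 newer probe sets were lower in BOUNTIFUL without exception, with a mean log2 ratio of -0.35, and so were the 9 older ones, with a mean of -0.55. A ratio that crosses a 2-fold line when these spikes are set equal is also given on that scale.

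Of the clade III genes, SWEET11 and SWEET13 passed the filter, and both had lower signals in BOUNTIFUL, SWEET11 by more than 2-fold and SWEET13 by less. SWEET11 (AT3G48740) encodes the phloem parenchyma exporter that, with its close relative SWEET12, delivers sucrose for phloem loading in leaves. Its signal was 1142 units in BOUNTIFUL and 2896 units in Ws-0. That is a log2 ratio of -1.34, or 2.53-fold lower in BOUNTIFUL, with both signals far above the controls. Of the 11373 probe sets that passed the filter, 193 had a lower log2 ratio than SWEET11. With the newer spikes set equal the ratio was -0.99 and with the older ones -0.79, so the 2-fold line was no longer reached. In these bulk leaf samples fewer cells of a type and less RNA per cell cannot be told apart.

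SWEET13 (AT5G50800) encodes another plasma membrane sucrose exporter, whose protein has also been shown to transport gibberellins. Its signal was 99.4 units in BOUNTIFUL and 184 units in Ws-0. The log2 ratio of -0.84, 1.79-fold lower in BOUNTIFUL, lay on the same side as that of SWEET11 and short of 2-fold. SWEET13 stayed between -0.89 and -0.33 under all 8 settings of scaling or pseudocount, the main one and 7 in which 1 choice was changed. SWEET11 was lower than SWEET13 by a further 0.50 on the log2 ratio scale. The SD of the log2 ratio over all passing probe sets was 0.62. The median gap between the ratios of a pair of probe sets for 1 gene was 0.21, over 33 genes on these arrays. A median leaves the upper range of such gaps open, so nothing is read from the 0.50. The gap within a pair reflects the arrays and not the spread between plants.

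Both tonoplast genes of clade IV were higher in BOUNTIFUL, on the other side of 0 from SWEET11 and SWEET13. SWEET17 (AT4G15920), a vacuolar fructose facilitator known to affect the fructose content of leaves, had 348 units in BOUNTIFUL and 83.4 units in Ws-0. Its log2 ratio of 1.96, a 3.90-fold difference, was the highest among the 16 SWEET genes read, and 106 of the passing probe sets had a higher one. SWEET17 stayed at least 2-fold higher under all 8 settings, from 1.78 to 2.50. Both signals were clear of the control range.

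SWEET16 (AT3G16690), a tonoplast carrier of glucose, fructose and sucrose, had 79.4 units in BOUNTIFUL and 34.4 units in Ws-0. The log2 ratio was 1.05, a 2.07-fold difference, just past the 2-fold line. It was 0.82 with the larger pseudocount of 24.8 units, the 40th percentile of all signals, so its place past 2-fold rests on that choice. SWEET17 exceeded SWEET16 by 0.92 in log2 ratio.

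SWEET3 (AT5G53190) belongs to clade I and is among the less studied members of the family. Its signal was 67.5 units in BOUNTIFUL and 18.6 units in Ws-0. The Ws-0 signal lay just above the highest control on that array, 16.7 units, so the size of the difference rests on a near-background value. The log2 ratio was 1.51 (2.86-fold), with 1.86 when no pseudocount was added and 1.09 with the larger one.

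SWEET3 and SWEET16 passed the filter through their BOUNTIFUL signals, since their Ws-0 signals were below 39.9 units. A gene that enters in this way has to be higher in BOUNTIFUL. SWEET11, SWEET13 and SWEET17 were above 39.9 units on both arrays.

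**Figure D1:**
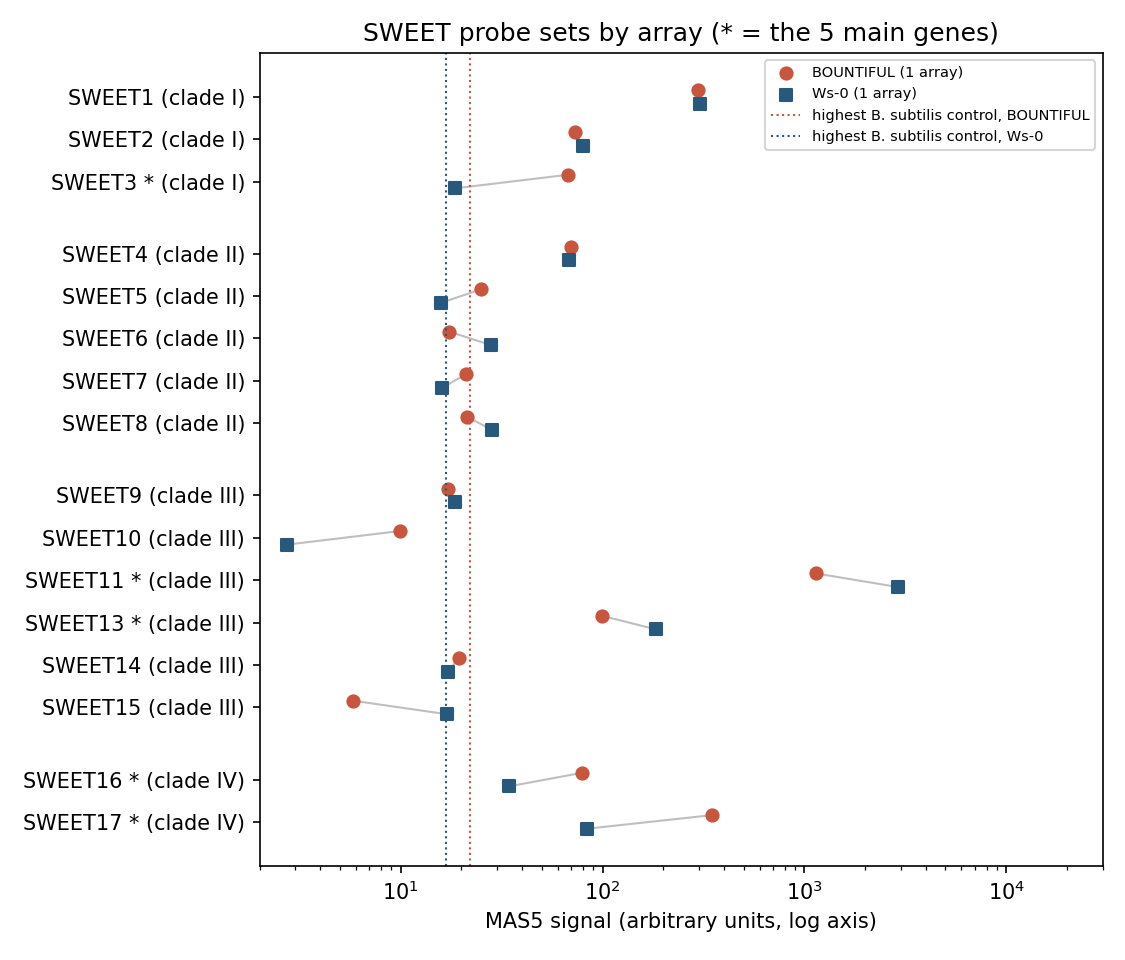
MAS5 signal in arbitrary units (log axis) of the 16 SWEET probe sets, grouped by clade, with 1 circle for the BOUNTIFUL array and 1 square for the Ws-0 array in each row; dotted lines mark the highest Bacillus subtilis control on each array (21.9 units in BOUNTIFUL, 16.7 units in Ws-0). The circle lies left of the square for SWEET11 and SWEET13 and right of it for SWEET3, SWEET16 and SWEET17, and rows are to be read 1 at a time.

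Set side by side, SWEET16 and SWEET17 had a mean log2 ratio of 1.50 and SWEET11 and SWEET13 a mean of -1.09. The gap between these means was 2.59. It describes genes listed with their values known, and SWEET16 passed the filter through its BOUNTIFUL signal alone, so neither the gap nor its sign is evidence of a pattern. A single scaling factor between the arrays moves both means together, and the gap was 2.59 on either spike scale. Over all 8 settings it lay between 2.34 and 2.75, the lowest with the larger pseudocount and the highest with none.

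**Figure D2:**
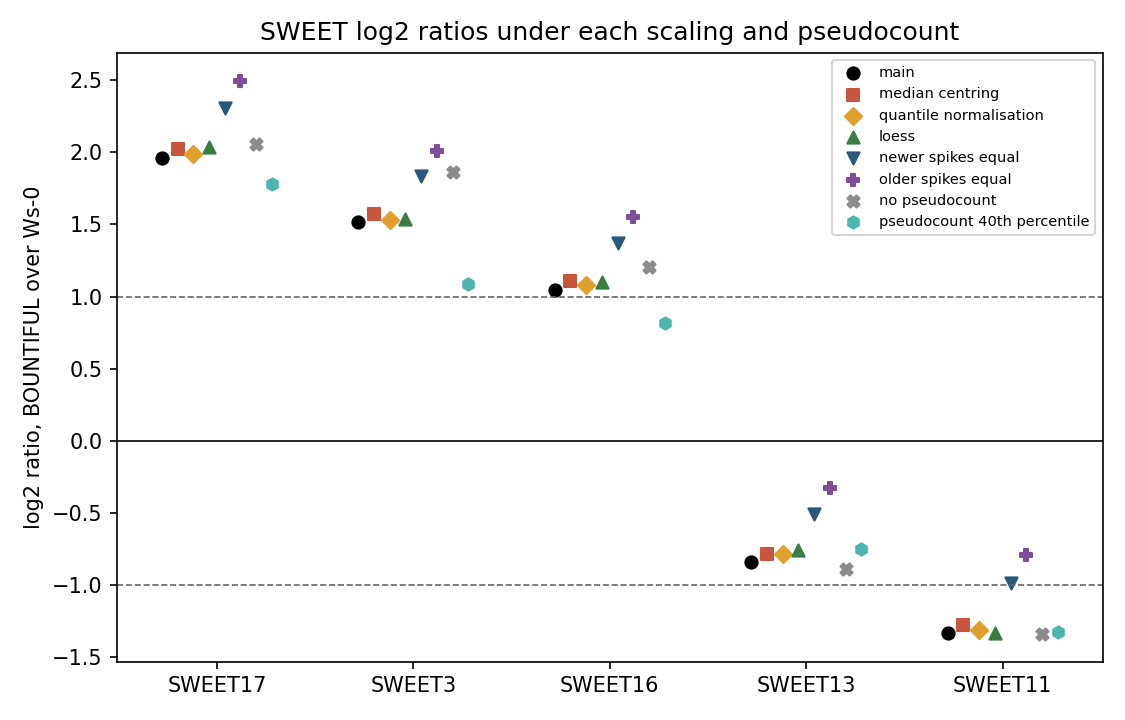
Log2 ratio of BOUNTIFUL over Ws-0 for the 5 SWEET genes under the main setting and 7 other scalings or pseudocounts, each with its own marker; dashed lines mark 2-fold (1 and -1). Both spike scalings move all 5 genes upward, SWEET11 to -0.99 and -0.79, and the larger pseudocount moves SWEET16 to 0.82 and SWEET3 to 1.09.

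Of the 5 genes, 3 were at least 2-fold higher in BOUNTIFUL, 1 was at least 2-fold lower and 1 lay between. The share of all passing probe sets past the same line was 4.63% for higher and 3.98% for lower signal in BOUNTIFUL. The genes were listed with these values known, so nothing is read from their count. When the passing probe sets were divided by mean signal into 4 classes of like size, the brightest class, which holds SWEET11, had 3.90% at least 2-fold lower. The class of SWEET13 and SWEET17, with mean signals from 116 to 243 units, had 4.75% past 2-fold on the higher side and 4.92% on the lower. In the dimmest class, with SWEET3 and SWEET16, 3.62% were at least 2-fold higher.

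**Figure D3:**
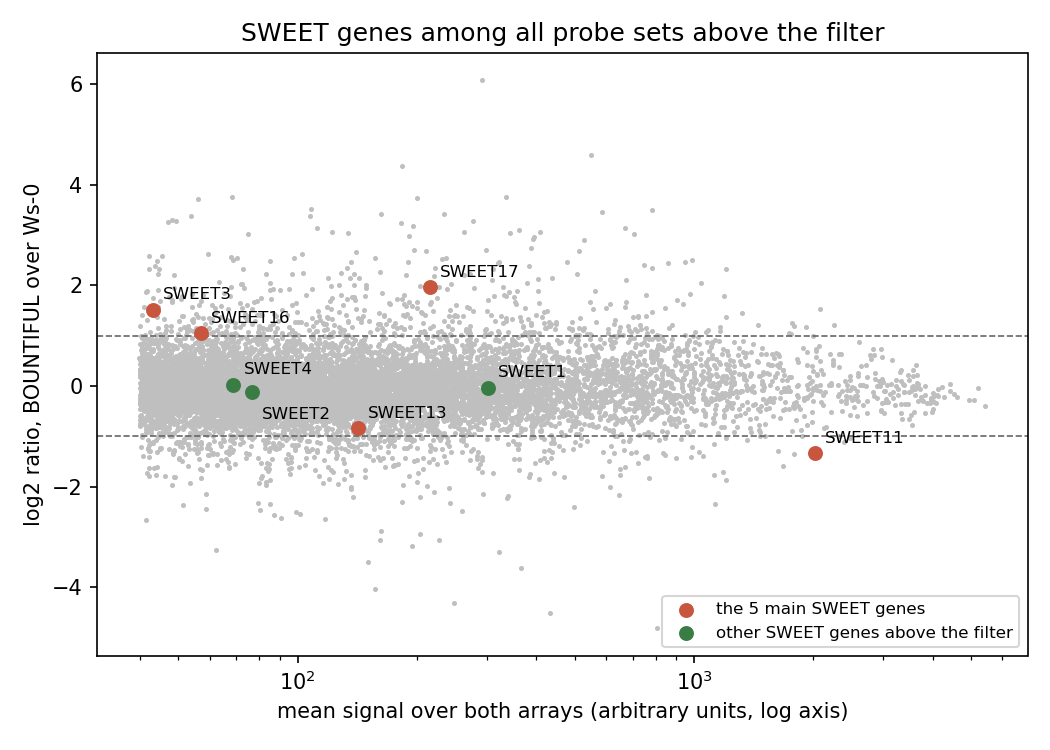
Log2 ratio of BOUNTIFUL over Ws-0 against the mean signal of both arrays (arbitrary units, log axis) for the 11373 probe sets above the filter in grey, with the 5 main SWEET genes and the other 3 SWEET genes above the filter in colour; dashed lines mark 2-fold. SWEET17 lies at 1.96, with 106 probe sets above it, and SWEET11 at -1.34, with 193 below it. SWEET1, SWEET2 and SWEET4 lie near 0.

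The other SWEET genes above the filter differed little between the genotypes in the main setting. SWEET1 (AT1G21460), a plasma membrane glucose transporter of clade I, had 298 units in BOUNTIFUL and 305 units in Ws-0, a log2 ratio of -0.03. SWEET2 (AT3G14770), a clade I protein of the tonoplast, had 73.1 units in BOUNTIFUL and 80.0 units in Ws-0, a log2 ratio of -0.12. SWEET4 (AT3G28007), a clade II hexose transporter, had 69.5 units in BOUNTIFUL and 68.0 units in Ws-0, a log2 ratio of 0.03. With the newer spikes set equal, SWEET1 moved to 0.31, SWEET2 to 0.20 and SWEET4 to 0.35. The median of all passing probe sets moved with them, to 0.27 against -0.06 in the main setting. With the older spikes set equal, SWEET1 was at 0.50, SWEET2 at 0.38, SWEET4 at 0.53 and that median at 0.45. SWEET2 shares the tonoplast with SWEET16 and SWEET17 and clade I with SWEET3, and its ratio was unlike those of all 3.

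The remaining 8 SWEET genes were below the filter, with mean signals of 6.33 to 24.8 units. On the BOUNTIFUL array 7 of them lay in the range of the controls and on the Ws-0 array 3 did. They include genes known from reproductive tissues, such as SWEET9 of the nectary, with 17.2 units in BOUNTIFUL and 18.5 units in Ws-0, and SWEET8 (RPG1) of the anther, with 21.2 units in BOUNTIFUL and 28.4 units in Ws-0. SWEET5 (AtVEX1), of the pollen vegetative cell, had 25.0 units in BOUNTIFUL and 15.8 units in Ws-0. SWEET15, listed as the senescence-associated gene SAG29, had 5.79 units in BOUNTIFUL and 17.0 units in Ws-0. The other clade III genes among them were SWEET10, with 9.92 units in BOUNTIFUL and 2.75 units in Ws-0, and SWEET14, with 19.4 units in BOUNTIFUL and 17.1 units in Ws-0. In clade II, SWEET6 had 17.4 units in BOUNTIFUL and 28.1 units in Ws-0, and SWEET7 had 21.1 units in BOUNTIFUL and 16.1 units in Ws-0. Their log2 ratios, from -0.87 to 0.75, were all short of 2-fold. SWEET7 and SWEET10 lay in the control range on both arrays and the other 6 on 1 array. With no pseudocount SWEET10 was at 1.85 and SWEET15 at -1.55. Clade III was thus read above the filter through SWEET11 and SWEET13 alone.

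Other genes of sugar transport and sucrose metabolism were read from a list of 131 names in 8 groups, sucrose and hexose carriers, tonoplast and plastid carriers, invertases, sucrose synthases, sucrose synthesis enzymes and sugar kinases. Only 6 of these genes had a probe set assigned to 1 gene, all from 2 of the 8 groups, the tonoplast carriers and the invertases. No gene of the other groups was read. Of the 6, 5 passed the filter. None of the 5 reached a 2-fold difference, 3 had a log2 ratio above 0 and 2 below, and the median was 0.05 beside -0.06 for all passing probe sets. The tonoplast monosaccharide antiporter genes, whose proteins move hexoses into the vacuole in exchange for protons, stayed short of a 2-fold difference. TMT1 (AT1G20840) had 341 units in BOUNTIFUL and 422 units in Ws-0, a log2 ratio of -0.30 that was 0.04 with the newer spikes set equal. TMT2 (AT4G35300) had 131 units in BOUNTIFUL and 126 units in Ws-0, a log2 ratio of 0.05. TMT3 (AT3G51490) was below the filter, with 23.8 units in BOUNTIFUL and 35.9 units in Ws-0.

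The sugar porter genes SFP1 and SFP2 are tandem relatives of the vacuolar ERD6-like carriers. SFP1 (AT5G27350) had 462 units in BOUNTIFUL and 360 units in Ws-0, a log2 ratio of 0.35. SFP2 (AT5G27360) had 57.2 units in BOUNTIFUL and 51.6 units in Ws-0, a log2 ratio of 0.13. The gene cwINV6 (AT5G11920), named as a cell wall invertase and known to encode a fructan-degrading enzyme, had 44.2 units in BOUNTIFUL and 74.5 units in Ws-0, a log2 ratio of -0.66. The proton-coupled sucrose carrier SUC2 of the companion cell, which takes up the sucrose that SWEET11 releases, was not analysed here.

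**Figure D4:**
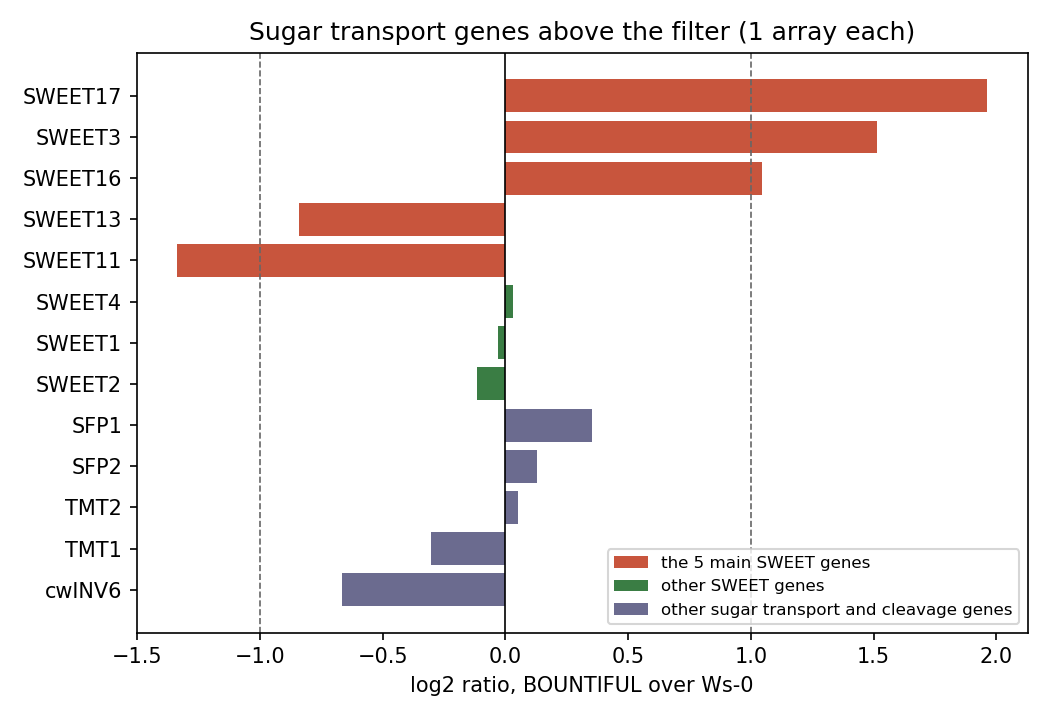
Log2 ratio of BOUNTIFUL over Ws-0 for the 5 main SWEET genes, the other 3 SWEET genes above the filter and 5 other genes of sugar transport and cleavage, 1 bar per gene and 1 array per genotype; dashed lines mark 2-fold. The 5 main genes run from 1.96 for SWEET17 to -1.34 for SWEET11, and the other 8 bars lie between 0.35 and -0.66.

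For each of the 5 genes, the named genes with the most similar pair of signals were found by Euclidean distance in log2(signal + pseudocount) over both arrays, among 6024 passing probe sets with 1 gene. With 1 value per genotype this says only that brightness and ratio are alike. Nearest to SWEET11 were AT1G52870 and BCAT4 (AT3G19710), an aminotransferase gene of methionine-derived glucosinolate synthesis, both at a distance of 0.25. BCAT4 had 1005 units in BOUNTIFUL and 2561 units in Ws-0. Nearest to SWEET17 were AT5G44020 and the beta-tubulin gene TUB7 (AT2G29550), both at a distance of 0.21, and TUB7 had 308 units in BOUNTIFUL and 91.6 units in Ws-0. SWEET13 was nearest to AT1G04300 and AT2G41120, both at 0.03. SWEET16 was nearest to the carboxypeptidase-like gene scpl50 (AT1G15000) and AT1G60590, at 0.024 and 0.025. SWEET3 was nearest to POLA3 (AT5G41880), at 0.092, and AT3G12870, at 0.10.

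The leaf label was checked against marker genes. The 5 of 12 green leaf markers with a probe set, RCA, LHCB4.1, LHCB4.2, PSAN and PSAE-1, passed the filter on signals of 158 to 4492 units, summing to 13897 units in BOUNTIFUL and 11594 units in Ws-0. The sum mixes probe sets that went different ways, with RCA at 3587 units in BOUNTIFUL and 4492 units in Ws-0, a log2 ratio of -0.32, and LHCB4.1, LHCB4.2, PSAE-1 and PSAN at log2 ratios of 0.22, 0.70, 0.74 and 0.79. Outside the SWEET family, only ACT12 of the pollen markers and UFO of the 4 flower markers were read. Both genes lay in the control range on both arrays. Of 4 root markers, 3 had a probe set and none passed the filter, with a summed signal of 100.2 units in BOUNTIFUL and 60.3 units in Ws-0. Within these, EXPA7 had 17.5 units in BOUNTIFUL and 21.7 units in Ws-0, EXPA18 had 26.1 units in BOUNTIFUL and 25.0 units in Ws-0, and PYK10, a beta-glucosidase gene of root and hypocotyl ER bodies, had 56.5 units in BOUNTIFUL and 13.6 units in Ws-0. The part of root marker signal in the SWEET values was not tested. The phloem companion cell, xylem and seed markers were not analysed here, so a part of vascular cell content in the SWEET11, SWEET16 and SWEET17 values was not tested.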

How the data were processed

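Total RNA was labelled as biotin cRNA and hybridised to 1 ATH1 array per genotype. The deposited values are intensity signals that the authors made with MAS5, per the submitters' processing notes, with the version not given in the sources used here. Both arrays had a mean of 100.0 once 2% of probe sets were trimmed at each end, and were used as scaled. Detection calls were not used here.

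Control probe sets (64 of 22810) were left out. Gene names came from a 2016 annotation of the platform, and symbols and gene order from the TAIR10.1 gene table. SWEET5 and SWEET15 were matched through synonyms, and clades were assigned from general knowledge. The files name no genome build, so no coordinates are given. Calculations used Python 3.11.15, numpy 2.4.6, pandas 2.3.3 and statsmodels 0.14.6. The code was also run on a simulated pair of arrays without noise, with set differences in bright probe sets. That run does not test dim signals or noise.

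The genes and lists were chosen with earlier results of these data known. Genes named are all SWEET genes and list genes with a probe set of 1 gene and, for each of the 5 genes, the 2 nearest by signal. Neighbours in gene order, in the closing section, were added later. Alternatives were median centring, quantile normalisation, loess (span 0.3), newer or older spikes set equal, other pseudocounts and other filters.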

Additional observations from a re-analysis of the deposited data

How the results depend on the processing

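No paired analysis was possible because there was 1 array per genotype, which also left no array to omit. Each of the 5 genes had a single probe set with no cross-hybridisation suffix, so the alternatives on the brightest probe set and on suffixes gave no other value. A log2 ratio was taken as moved when it shifted by more than 0.21, the median gap between the ratios of a pair of probe sets of 1 gene. Median centring takes the same value, the median of -0.06 over passing probe sets, from every ratio, so it could move no gene by that much. Quantile normalisation and loess moved none of the 5 genes by that much. With the newer and the older spikes set equal, the log2 ratio was -0.99 and -0.79 for SWEET11, -0.51 and -0.33 for SWEET13, 1.37 and 1.55 for SWEET16, 2.31 and 2.50 for SWEET17, 1.83 and 2.01 for SWEET3, and 0.39 and 0.57 for the median of the sugar list. With the larger pseudocount SWEET16 was at 0.82 and SWEET3 at 1.09, and with none SWEET3 was at 1.86. The 527 higher and 453 lower probe sets became 1118 and 203 with the newer spikes, 1663 and 131 with the older, 948 and 799 with no filter and 322 and 251 with the filter at the 75th percentile. Every BOUNTIFUL signal is multiplied by 1 factor under the spike scalings, and more or fewer probe sets enter under the filters. The sugar list median, 0.05 over 5 genes, was -0.13 with no filter, where TMT3 entered. Signals up to 21.9 units in BOUNTIFUL and 16.7 units in Ws-0 cannot be told from background.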

Other observations

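On each side of each of the 5 SWEET genes, the nearest coding gene with a probe set assigned to exactly 1 gene was read. The TAIR10.1 gene table gave the order, and coding genes without such a probe set were passed over. This comparison was added after the values of the 5 genes were seen. SWEET10 (AT5G50790) and SWEET13 (AT5G50800) are adjacent coding genes. SWEET10 had 9.92 units in BOUNTIFUL and 2.75 units in Ws-0, both in the control range, and SWEET13 had 99.4 units in BOUNTIFUL and 184 units in Ws-0. After SWEET17, the adjacent AT4G15930 had 329 units in BOUNTIFUL and 317 units in Ws-0, a log2 ratio of 0.05 beside 1.96 for SWEET17, and DI21 (AT4G15910), just before SWEET17, had 6.65 units in BOUNTIFUL and 1.35 units in Ws-0. AT3G16700, adjacent to SWEET16, had 72.3 units in BOUNTIFUL and 41.5 units in Ws-0, a log2 ratio of 0.70 beside 1.05 for SWEET16. TRY (AT5G53200), a trichome patterning gene adjacent to SWEET3, had 40.2 units in BOUNTIFUL and 41.1 units in Ws-0, a log2 ratio of -0.03. AT3G48760 was the nearest such gene after SWEET11, with 1 coding gene between them. It had 95.2 units in BOUNTIFUL and 150 units in Ws-0, a log2 ratio of -0.61 beside -1.34 for SWEET11. The other neighbours read were below the filter, as were SWEET10 and DI21. AT5G53150, before SWEET3 with 3 coding genes between them, had a log2 ratio of -0.43. AT3G48710, before SWEET11 with 2 coding genes between them, had -0.40. AT5G50830, after SWEET13 with 2 coding genes between them, had -0.33. AT3G16680, just before SWEET16, had 0.35.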
